A study of Mus musculus with 20 samples.

Results

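The 42 nuclear genes described here encode the parts of mitochondrial respiratory complexes II to V and the electron carrier cytochrome c. They were chosen by name, as subunits of these complexes, and comprised 4 genes of complex II, 9 of complex III, 1 for cytochrome c, 12 of complex IV and 16 of complex V. All 42 were matched to 1 identifier each among the 48795 genes of the deposited table, by current symbol or older alias, and all 42 passed the filter on low values. The lowest recovered count of any member in any library was 83 reads, for Cox7a1.

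RNA-seq was performed on whole hearts of mouse embryos at E13.5, a stage of mid-gestation, with 5 hearts in each of 4 groups. Dp3Tyb embryos carry a duplication of the stretch of mouse chromosome 16 from Mir802 to Zbtb21, which gives them an extra copy of its genes, and were compared with their own wild-type littermates, WT_d. Ts1Rhr embryos carry the shorter duplication from Cbr1 to Fam3b and were compared with a separate set of wild-type littermates, WT_t. Both strains model part of the trisomy of Down syndrome, and the mice were on a C57BL/6J background. The deposited phenotype notes mark Ts1Rhr replicates 1 and 2 and all 5 Dp3Tyb hearts as having heart defects and Ts1Rhr replicates 3 to 5 as not having them, whereas the study treats the strain as free of them, so the 5 were kept together by genotype.

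Values are normalised reads, which are reads per gene divided by a factor for each library. Libraries held 6.60 to 19.6 M reads (M, 1e6). Between 4.85% and 19.5% of the reads came from the 37 genes of the mitochondrial genome, and this share divided the libraries into 7 with 10.5 to 19.5% (1 WT_d, 1 Dp3Tyb, 3 WT_t and 2 Ts1Rhr hearts) and 13 with 4.85 to 7.17%. The 7 held 6.60 to 17.0 M reads and the 13 held 12.2 to 19.6 M. By library name, all of the 7 but WT_t replicate 4 follow one another, from WT_d replicate 5 to Ts1Rhr replicate 2. This run crosses both cohorts, so the share cannot be told apart from whatever goes with that order. The 2 Ts1Rhr hearts among the 7 are replicates 1 and 2, so in that group the phenotype note and the mitochondrial share cannot be told apart. All 8 cardiomyocyte markers, among them Tnnt2 and Myh6, were present in every library. Markers of lung and foregut epithelium, a neighbouring tissue, were also read: the mean log2 level of 7 such genes ran from 1.81 to 5.63 in WT_d, 3.94 to 6.20 in Dp3Tyb, 4.47 to 5.69 in WT_t and 1.79 to 5.32 in Ts1Rhr. Of these genes, Sftpc was at 0 in 15 of 20 libraries, Nkx2-1 in 4, Foxa2 in 2, Sox2 and Cdh1 in 1 each, and Epcam and Krt8 in 0. The 6 of these genes that passed the filter had a median log2 fold change of 1.83 in Dp3Tyb (6 of 6 higher) and -1.70 in Ts1Rhr (6 of 6 lower), with 0 called by limma and 1 and 2 at an unadjusted p under 0.05. The cardiomyocyte markers had a median of -0.11 in Dp3Tyb (6 of 8 lower) and -0.03 in Ts1Rhr (5 of 8 lower), and the fibroblast and cushion markers of 0.14 (5 of 5 higher) and 0.12 (4 of 5 higher). The erythroid markers had a median of 0.13 in Dp3Tyb (8 of 9 higher) and 0.26 in Ts1Rhr (9 of 9 higher), and the macrophage markers of 0.23 (6 of 6 higher) and 0.37 (6 of 6 higher, 3 at an unadjusted p under 0.05). None of the markers in these 4 lists was called by limma and all were above 0 in every library. With the cardiomyocyte level as a covariate limma called 0 of 42 members in either strain, with medians of -0.05 and 0.04, and Cox7a1 in Dp3Tyb, at 0.30 ± 0.10, was the 1 member at an unadjusted p under 0.05. The shares of all genes in that fit are not given here, so these counts cannot be set against them. The part of the other marker lists in the results below was not tested.

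The respiratory chain passes electrons from NADH and succinate to oxygen and uses the energy to pump protons across the inner mitochondrial membrane. Complex II is succinate dehydrogenase and also a step of the citric acid cycle, complex III (cytochrome bc1) hands electrons to cytochrome c, complex IV (cytochrome c oxidase) passes them to oxygen, and complex V (ATP synthase) makes ATP as protons flow back. Complex II is wholly nuclear-encoded, while complexes III to V each contain subunits made from the mitochondrial genome as well. The heart depends on this pathway after birth and raises it as cardiomyocytes mature, and some complex IV subunits exist as a ubiquitous form and a form found mainly in heart and skeletal muscle.

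Promoters of such genes are known to hold sites for the activators NRF1 and GABPA. RefSeq promoter windows of the GRCm38.p6 build, from 250 bases before to 50 bases after the annotated start, were at hand for 33 of the 42 members (36 windows). On either strand, the NRF1 letters GCGCANGCG were found in 14 of the 36 member windows (38.9%), against 6.25% of all 32851 windows. The GABPA letters CCGGAAG were found in 12 member windows (33.3%), against 8.86% of all windows. The ESRRA letters AAGGTCA were found in 6 (16.7%), against 4.72%, and the YY1 letters AAGATGGCG in 2 (5.56%), against 1.4%. All members are protein-coding, and over the 21263 windows of protein-coding genes the shares were 8.58% for NRF1, 11.6% for GABPA, 4.08% for ESRRA and 1.83% for YY1. All of these are counts of letters, not of bound sites, and no test was made on them. The 250 bases before the start are printed below for 4 members on which later results turn, in lower case with any of the 4 motifs in capitals: Cycs, which was higher in hearts with a high mitochondrial share, Uqcrfs1 and Atp5f1e, which were lower in them, and Cox7a1, the muscle isoform whose ratio to its ubiquitous partner is described below.
Cycs, chr6:50566570-50566819, minus strand: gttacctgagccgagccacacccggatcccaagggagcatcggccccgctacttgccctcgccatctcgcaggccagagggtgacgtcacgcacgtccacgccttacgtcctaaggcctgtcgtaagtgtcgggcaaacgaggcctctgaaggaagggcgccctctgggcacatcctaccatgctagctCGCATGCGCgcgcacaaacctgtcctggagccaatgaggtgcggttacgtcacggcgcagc
Uqcrfs1, chr13:30545317-30545566, minus strand: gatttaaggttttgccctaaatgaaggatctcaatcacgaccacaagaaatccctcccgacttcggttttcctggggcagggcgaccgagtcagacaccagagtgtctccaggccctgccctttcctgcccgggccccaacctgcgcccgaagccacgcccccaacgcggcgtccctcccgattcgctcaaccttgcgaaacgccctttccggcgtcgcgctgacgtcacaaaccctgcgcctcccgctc
Atp5f1e, chr2:174464102-174464351, minus strand: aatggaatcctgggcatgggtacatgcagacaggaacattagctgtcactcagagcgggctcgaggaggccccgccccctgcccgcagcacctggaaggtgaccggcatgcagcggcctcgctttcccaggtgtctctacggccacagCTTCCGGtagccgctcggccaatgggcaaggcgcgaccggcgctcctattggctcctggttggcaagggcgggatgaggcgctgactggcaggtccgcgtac
Cox7a1, chr7:30183921-30184170, plus strand: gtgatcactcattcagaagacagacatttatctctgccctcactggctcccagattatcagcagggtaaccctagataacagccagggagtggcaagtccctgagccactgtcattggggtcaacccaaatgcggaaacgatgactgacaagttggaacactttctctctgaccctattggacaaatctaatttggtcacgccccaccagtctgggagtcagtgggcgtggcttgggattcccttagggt

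The Cycs stretch holds the NRF1 letters on the opposite strand, 53 to 61 bases before the start, and overlaps a non-coding RNA gene, 5430402O13Rik. The Atp5f1e stretch holds the GABPA letters on the opposite strand, 96 to 102 bases before the start. Neither the Uqcrfs1 nor the Cox7a1 stretch holds any of the 4. The Cox7a1 stretch had the lowest share of G and C among the 4, at 51.2%, against 62.4% for Uqcrfs1, 64% for Cycs and 65.6% for Atp5f1e.

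Compared per kilobase of the annotated transcript, the members covered a wide range. The subunits that form the catalytic head of ATP synthase were the highest: the mean over all 20 hearts was 14411 normalised reads per kilobase for Atp5f1b, which encodes the beta subunit with the catalytic sites, and 9194 for Atp5f1a, which encodes the alpha subunit. The lowest in complex V was Atp5pf, for the coupling factor 6 subunit, at 656 per kilobase. In complex IV the highest was Cox6c at 5769 and the lowest the muscle isoform Cox7a1 at 537. In complex III the highest was Uqcrb, a small subunit next to the ubiquinone site, at 4285, and the lowest Uqcr11 at 388. In complex II the flavoprotein gene Sdha was highest at 2242, and Sdhb, for the iron-sulfur subunit, lowest at 581. The annotated transcripts of Atp5pf (3619 bases), Uqcr11 (2746 bases) and Sdhb (4030 bases) are long for such small proteins, and where a shorter form predominates these per-kilobase values are too low.

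The 3 genes Atp5mc1, Atp5mc2 and Atp5mc3 encode the same mature c subunit, which forms the rotor ring of ATP synthase. Per kilobase, Atp5mc3 made up 54.2% ± 2.16 of the family total in WT_d hearts and 48.8% ± 1.67 in WT_t hearts (SD, n = 5 each). Atp5mc1 made up 30.8% ± 1.66 and 34.5% ± 2.98, and Atp5mc2 the rest. Atp5mc2 is uncertain, because the pseudogene Gm10175 matches its transcript without a mismatch over 441 bases and was credited with a mean of 631 normalised reads, 54.9% of the value of Atp5mc2 itself. The other member with copies credited with more than 5% of its own value was Cox7c, at 12.3%. For all 20 hearts the muscle isoform Cox6a2 gave 27.2 to 44.5% of the Cox6a pair per kilobase, and Cox7a1 gave 16.1 to 23.2% of the Cox7a pair.

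In Dp3Tyb hearts none of the 42 members differed from WT_d by limma at an adjusted p under 0.05, where 8 of 14763 genes did (0.0542%). At an unadjusted p under 0.05 the limma count was also 0 of 42, against 2.8% of all genes. DESeq2 and edgeR on the recovered reads called 0 of 42 as well, and each gave 1 member, Cox7a1, at an unadjusted p under 0.05. The shares of all genes by DESeq2 and edgeR are not given here, for this strain or for Ts1Rhr, and those of limma need not apply to them. For no member did the 5 Dp3Tyb hearts lie wholly apart from the 5 WT_d hearts, against 0.975% of all genes. The log2 fold changes of the members ran from -0.12 to 0.24 with standard errors of 0.06 to 0.40, and 32 of 42 were below 0, with a median of -0.05 beside a median of -0.0027 over all genes tested. For 35 of 42 members the 95% interval lay within 1.5-fold in either direction. The direction of the median rested on 1 heart, as it ran from -0.07 without Dp3Tyb replicate 2 to 0.0021 without Dp3Tyb replicate 5, and without the 2 hearts over 10% of mitochondrial reads 22 of 42 members were below 0 and the median was -0.0069. In that last fit limma called none, and Cox7a1 (0.33 ± 0.09) and Atp5mc2 (-0.15 ± 0.06) were at an unadjusted p under 0.05. The shares of all genes in it are not given here.

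In Ts1Rhr hearts none of the 42 differed from WT_t by limma, where 4 of 14867 genes did (0.0269%). The count at an unadjusted p under 0.05 was 0 of 42 by limma, DESeq2 and edgeR, against 5.52% of all genes by limma, and no member had groups lying apart, against 1.12% of all genes. The log2 fold changes ran from -0.22 to 0.27 with standard errors of 0.06 to 0.26. Here 15 of 42 were below 0 and the median was 0.03, which ran from -0.0070 without Ts1Rhr replicate 3 to 0.06 without WT_t replicate 5. The 95% interval lay within 1.5-fold for 34 members. The difference between the strains, tested in 1 model of all 20 hearts, was called by limma for 0 of 42 members (0.013% of all genes) and passed an unadjusted p of 0.05 for 0 of 42 (1.52% of all genes), with a median of -0.08 that ran from -0.11 without Ts1Rhr replicate 2 to -0.02 without Ts1Rhr replicate 3, and was -0.05 without Dp3Tyb replicate 4 and -0.04 without Dp3Tyb replicate 5.

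**Figure D1:**
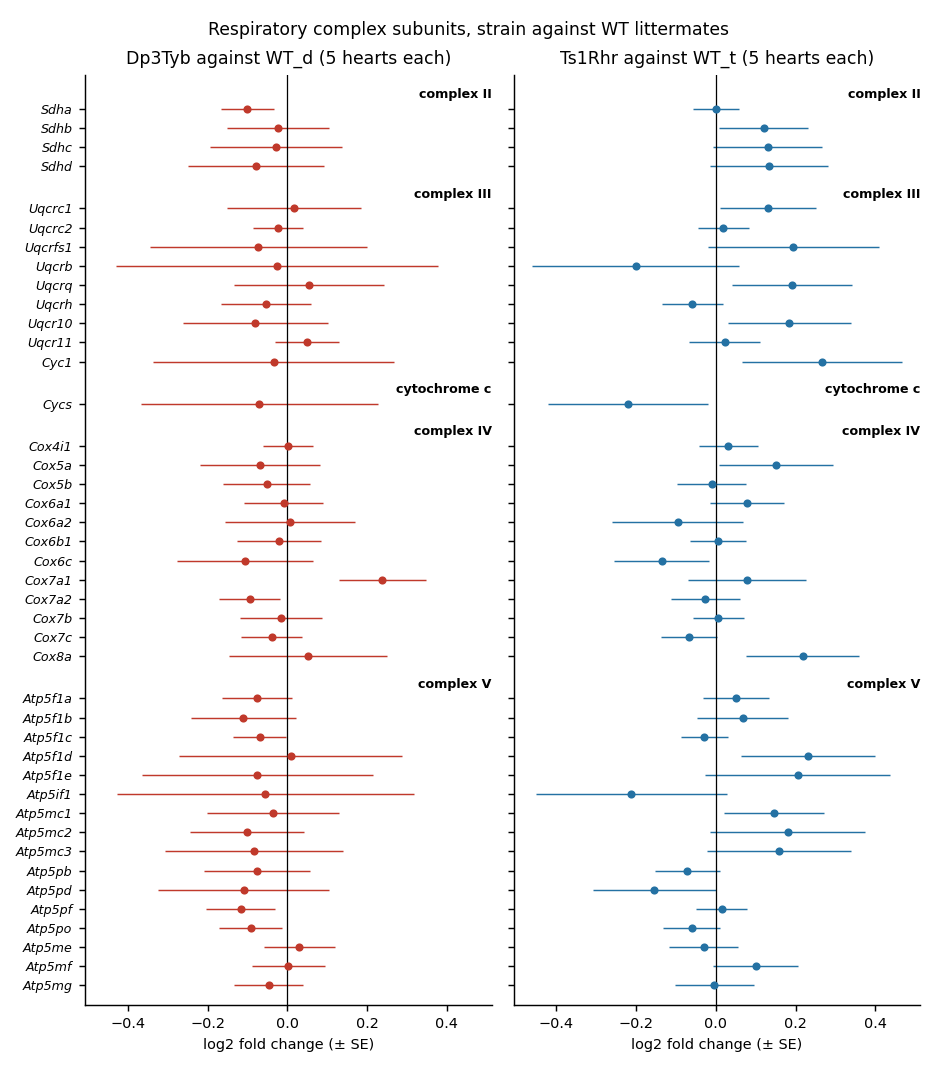
Log2 fold change of each member with its standard error (horizontal axis), by complex (vertical axis), for Dp3Tyb against WT_d (left) and Ts1Rhr against WT_t (right), 5 hearts a group. No member was called in either strain, and the Dp3Tyb values lie below 0 for 32 of 42 genes and those of Ts1Rhr above 0 for 27 of 42, leanings that turn without Dp3Tyb replicate 5 and Ts1Rhr replicate 3.

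All 4 genes of complex II had negative log2 fold changes in Dp3Tyb (median -0.05) and positive ones in Ts1Rhr (median 0.12), none past the test, and leaving out 1 heart moved the Dp3Tyb median to between -0.13 (without WT_d replicate 5) and 0.07 (without Dp3Tyb replicate 5). The Ts1Rhr median moved to 0.04 without WT_t replicate 4, 0.05 without Ts1Rhr replicate 3, 0.19 without WT_t replicate 5 and 0.22 without Ts1Rhr replicate 2. Sdha, which binds succinate, had a mean of 7106 ± 447 normalised reads in WT_d and 6628 ± 359 in Dp3Tyb (SD, n = 5 each), which is -0.10 ± 0.07 (SE) as a log2 fold change. In Ts1Rhr it was at 6916 ± 369 against 6911 ± 240 in WT_t. Sdhb had the highest value of the complex in Dp3Tyb, at -0.02 ± 0.13. Sdhd, a membrane anchor, had the highest in Ts1Rhr, at 0.13 ± 0.15, and ran from 0.03 without WT_t replicate 4 to 0.23 without Ts1Rhr replicate 2.

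In complex III, 6 of 9 genes were below 0 in Dp3Tyb (median -0.03) and 2 of 9 in Ts1Rhr (median 0.13). The lowest in Dp3Tyb was Uqcr10, at -0.08 ± 0.18, and the highest Uqcrq, at 0.06 ± 0.19, both small accessory subunits. Leaving out 1 heart moved the Dp3Tyb median to between -0.10 (without WT_d replicate 5) and 0.10 (without Dp3Tyb replicate 5), and it was also above 0 without WT_d replicate 4 or Dp3Tyb replicate 4. The Ts1Rhr median became 0.04 without WT_t replicate 4 or Ts1Rhr replicate 3 and 0.20 without Ts1Rhr replicate 2. In Ts1Rhr the extremes were wider apart. Uqcrb was at -0.20 ± 0.26, with 2694 ± 1107 normalised reads in WT_t and 2290 ± 724 in Ts1Rhr. Cyc1, which carries the haem of cytochrome c1, was at 0.27 ± 0.20, with 2045 ± 503 and 2461 ± 683, and at 0.11 without WT_t replicate 4 or 0.12 without Ts1Rhr replicate 3. The spread between hearts of 1 group was larger than the difference between groups for both genes.

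Cycs, the somatic cytochrome c, varied widely from heart to heart. The WT_d hearts held 2991, 3228, 2858, 3123 and 8124 normalised reads and the Dp3Tyb hearts 3329, 3193, 3184, 2713 and 5973. The WT_t hearts held 5343, 5075, 4087, 6395 and 3399, and the Ts1Rhr hearts 5381, 5612, 3373, 3576 and 3079. In each cohort the groups overlapped, and the high hearts were those with over 10% of mitochondrial reads. The log2 fold change was -0.07 ± 0.30 in Dp3Tyb, where leaving out 1 heart gave values from -0.26 (without Dp3Tyb replicate 5) to 0.21 (without WT_d replicate 5). It was -0.22 ± 0.20 in Ts1Rhr, with values from -0.34 (without WT_t replicate 5) to -0.11 (without WT_t replicate 4).

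In complex IV, 8 of 12 genes were below 0 in Dp3Tyb (median -0.02) and 5 of 12 in Ts1Rhr (median 0.01). Leaving out 1 heart moved the Dp3Tyb median to between -0.06 (without WT_d replicate 1) and 0.03 (without WT_d replicate 5), and it was also above 0 without Dp3Tyb replicate 4. The Ts1Rhr median moved to between -0.03 (without Ts1Rhr replicate 1) and 0.05 (without Ts1Rhr replicate 5), and was also below 0 without WT_t replicate 1 or Ts1Rhr replicate 3. Cox6c was the lowest in both, at -0.11 ± 0.17 in Dp3Tyb and -0.14 ± 0.12 in Ts1Rhr. Cox8a was the highest in Ts1Rhr, at 0.22 ± 0.14. Without WT_t replicate 4 the Ts1Rhr values became -0.03 for Cox6c and 0.12 for Cox8a, and without Ts1Rhr replicate 3 Cox8a became 0.10. Cox4i1, the ubiquitous form of a regulatory subunit, was among the steadiest members, with 4332 ± 129 normalised reads in WT_d, 4343 ± 300 in Dp3Tyb, 4207 ± 292 in WT_t and 4304 ± 369 in Ts1Rhr.

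Cox7a1 had the largest positive value of all members in Dp3Tyb. The WT_d hearts held 180, 191, 201, 219 and 244 normalised reads and the Dp3Tyb hearts 232, 258, 286, 221 and 224, so the groups overlapped. The log2 fold change was 0.24 ± 0.11 (17.9% higher), with a limma p of 0.0517 before adjustment and 0.99996 after it. Without the hearts over 10% of mitochondrial reads, Cox7a1 was at 0.33 ± 0.09, with a limma p of 0.0037 before adjustment and 0.35 after it. Its ubiquitous partner Cox7a2 was at -0.09 ± 0.08. In Ts1Rhr, Cox7a1 was at 0.08 ± 0.15, and the difference between the strains was 0.16 ± 0.19 with an adjusted limma p of 0.99966.

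Ratios within a library do not depend on its scaling factor, and 4 were compared in each strain, 8 tests in all, by the exact two-sided permutation test over all splits of the 10 hearts. The log2 ratio of Cox7a1 to Cox7a2 was -3.15 ± 0.09 in WT_d and -2.81 ± 0.12 in Dp3Tyb (SD, n = 5 each), a difference of 0.33. The 5 WT_d hearts lay between -3.26 and -3.05 and the 5 Dp3Tyb hearts between -2.91 and -2.65, without overlap. The exact p was 0.00794, the smallest these splits allow, and 0.0635 after Benjamini-Hochberg adjustment over the 8 tests, which is also the lowest value that a single ratio could reach in this design, so the test could not call it. The WT_t hearts, at -3.10 to -2.61, spanned the whole Dp3Tyb range. In Ts1Rhr the same ratio differed from WT_t by 0.10 (exact p = 0.405, adjusted p = 0.838), and by 0.04 without WT_t replicate 3 and 0.16 without WT_t replicate 4.

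The other pair of isoforms gave no such separation. The log2 ratio of Cox6a2 to Cox6a1 differed by 0.02 in Dp3Tyb (exact p = 0.857) and by -0.17 in Ts1Rhr (exact p = 0.492), where it ran from -0.27 without Ts1Rhr replicate 2 to -0.01 without WT_t replicate 4. The ratio of Atp5if1, the inhibitor of ATP synthase, to Atp5f1b differed by 0.05 (exact p = 0.786) and by -0.28 (exact p = 0.524). The ratio of Atp5mc1 to Atp5mc2 differed by 0.07 (exact p = 0.452), with 0.02 without Dp3Tyb replicate 2 and 0.12 without Dp3Tyb replicate 5, and by -0.03 (exact p = 0.905). After adjustment over the 8 tests these 6 exact p-values became 0.838 to 0.905.

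**Figure D2:**
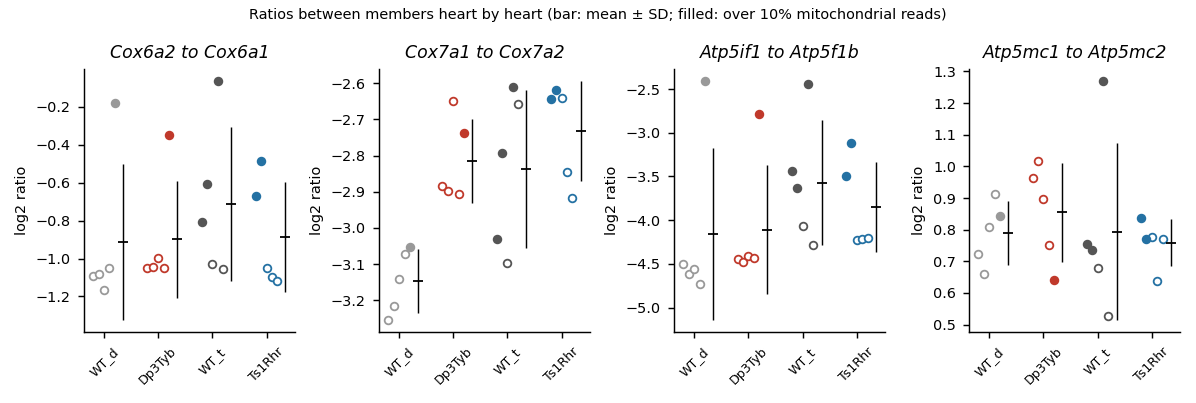
Log2 ratio of normalised reads between pairs of members (vertical axis) in each heart, by group, with the mean and SD; filled points are the 7 hearts with over 10% of mitochondrial reads. The Cox7a1 to Cox7a2 ratio of Dp3Tyb hearts lies above that of WT_d hearts and within the span of WT_t hearts, and the Cox6a2 to Cox6a1 and Atp5if1 to Atp5f1b ratios are highest in filled points.

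In complex V, 13 of 16 genes were below 0 in Dp3Tyb (median -0.08, and -0.04 without WT_d replicate 2 or Dp3Tyb replicate 4 and -0.02 without Dp3Tyb replicate 5) and 7 of 16 in Ts1Rhr (median 0.03, from -0.01 without Ts1Rhr replicate 3 to 0.07 without WT_t replicate 5). The highest in Dp3Tyb was Atp5me, for the membrane subunit e, at 0.03 ± 0.09. In Ts1Rhr the lowest was Atp5if1, at -0.21 ± 0.24, and the highest Atp5f1d, for the delta subunit of the central stalk, at 0.23 ± 0.17, or 0.11 without WT_t replicate 4 or Ts1Rhr replicate 3. Atp5f1b was at -0.11 ± 0.13 in Dp3Tyb and 0.07 ± 0.11 in Ts1Rhr.

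The 2 complex V genes on mouse chromosome 16 lie outside both duplications and so are present in 2 copies in both strains. Atp5pf is at chr16:84827871-84835857 and Atp5po, which encodes the stalk protein OSCP, at chr16:91925223-91931630 (GRCm38.p6), ahead of Cbr1 at chr16:93607837-93610349, where the Ts1Rhr duplication begins. Atp5pf had 2360, 2467, 2253, 2297 and 3018 normalised reads in WT_d hearts and 2280, 2422, 2221, 2063 and 2393 in Dp3Tyb hearts. The groups overlapped, and the highest WT_d heart was the one with the highest mitochondrial share. The log2 fold change was -0.12 ± 0.09 in Dp3Tyb, the lowest of all members there, but -0.04 without WT_d replicate 5, and 0.01 ± 0.06 in Ts1Rhr. Atp5po was at -0.09 ± 0.08 and -0.06 ± 0.07. Annotated exons of Atp5pf share 1995 bases with those of Gabpa on the opposite strand, whose value is 78.7% of that of Atp5pf, and as the sources used here do not say whether counting used strand, the reads of the pair may not be fully separated.

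To follow each complex heart by heart, the log2 values of its genes were centred on their means over the 20 hearts and averaged. The level of complex II was 0.06 ± 0.18 in WT_d and 0.0017 ± 0.22 in Dp3Tyb, and -0.08 ± 0.17 in WT_t and 0.02 ± 0.20 in Ts1Rhr (SD, n = 5 each). For complex V the level was 0.04 ± 0.06 in WT_d and -0.03 ± 0.13 in Dp3Tyb, and -0.02 ± 0.10 in WT_t and 0.01 ± 0.15 in Ts1Rhr. In all 5 sets and both strains the difference of the means was smaller than the SD of the strain. Within Dp3Tyb the mean of all members ran from -0.18 in replicate 5 to 0.10 in replicate 2, and within Ts1Rhr from -0.12 in replicate 2 to 0.25 in replicate 3. Each of these is whole-heart RNA, so fewer cells of a type and less RNA per cell cannot be told apart.

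**Figure D3:**
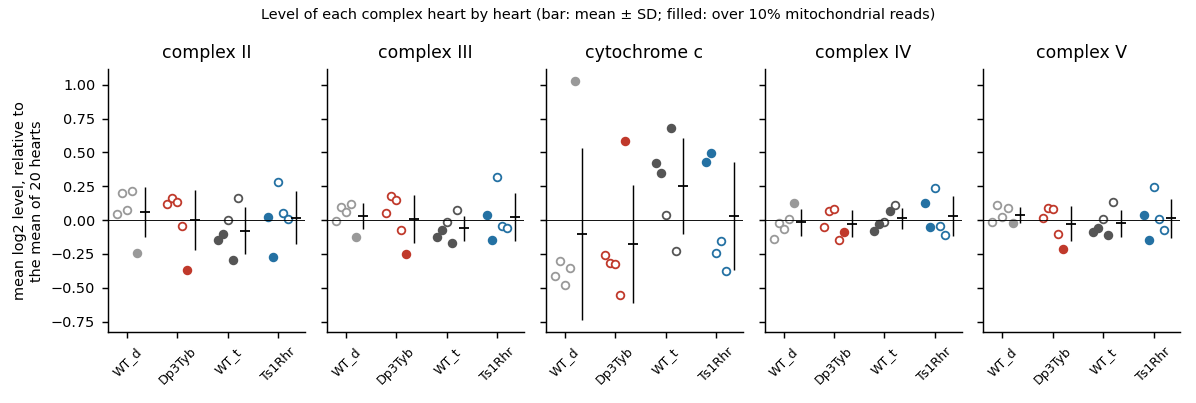
Mean log2 level of each complex in each heart relative to the mean of the 20 hearts (vertical axis), by group, with the mean and SD; filled points are hearts with over 10% of mitochondrial reads. In complex II the filled points are mostly the lowest of their group, and for cytochrome c they are the highest.

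Hearts of the same genotype also differed among themselves. A first principal component held 81.6% of the variance of the 42 members over the 20 hearts, against 32.9% for the first component of all genes tested. These shares are not like for like. Every member had at least 83 reads in each library, while genes tested needed only a value of 10 in 5 libraries. No set of genes of like number and level was compared. Between the highest and the lowest heart the members differed by a median of 1.75-fold, close to the median of 1.79-fold over all genes tested, and by up to 4.15-fold for Uqcrb. This dependence was examined after the data were seen.

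The members divided into some that were high in the 7 hearts with a high share and some that were low. Uqcrb ran from 2685 to 5922 normalised reads in the 7 (median 3316) and from 1427 to 1946 in the other 13 (median 1712), so the sets did not overlap. Atp5if1 ran from 2071 to 4469 (median 2641) against 1181 to 1760 (median 1405), and Cycs from 5075 to 8124 (median 5612) against 2713 to 4087 (median 3193). In the opposite direction, Cyc1 ran from 1116 to 2237 (median 1738) against 2253 to 3588 (median 2623). Uqcrfs1, the Rieske iron-sulfur protein of complex III, ran from 1212 to 1879 (median 1452) against 2211 to 3205 (median 2813). Atp5f1e, for the epsilon subunit, ran from 442 to 680 (median 549) against 806 to 1185 (median 1082). Sdha, from 6608 to 7534 (median 6830) against 6043 to 7516 (median 6831), showed no shift.

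In all, 5 of 42 members (Uqcrb, Cycs, Atp5if1, Atp5pb and Atp5pd) were higher in every one of the 7 hearts than in the 13, against 8.4% of all genes. A further 8 members (Sdhd, Uqcrc1, Uqcrfs1, Cyc1, Cox5a, Atp5f1e, Atp5mc3 and Atp5mf) were lower in every one, against 6.45% of all genes. Complex III had genes in both sets, with Uqcrb higher and Uqcrc1, Uqcrfs1 and Cyc1 lower in the same libraries.

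**Figure D4:**
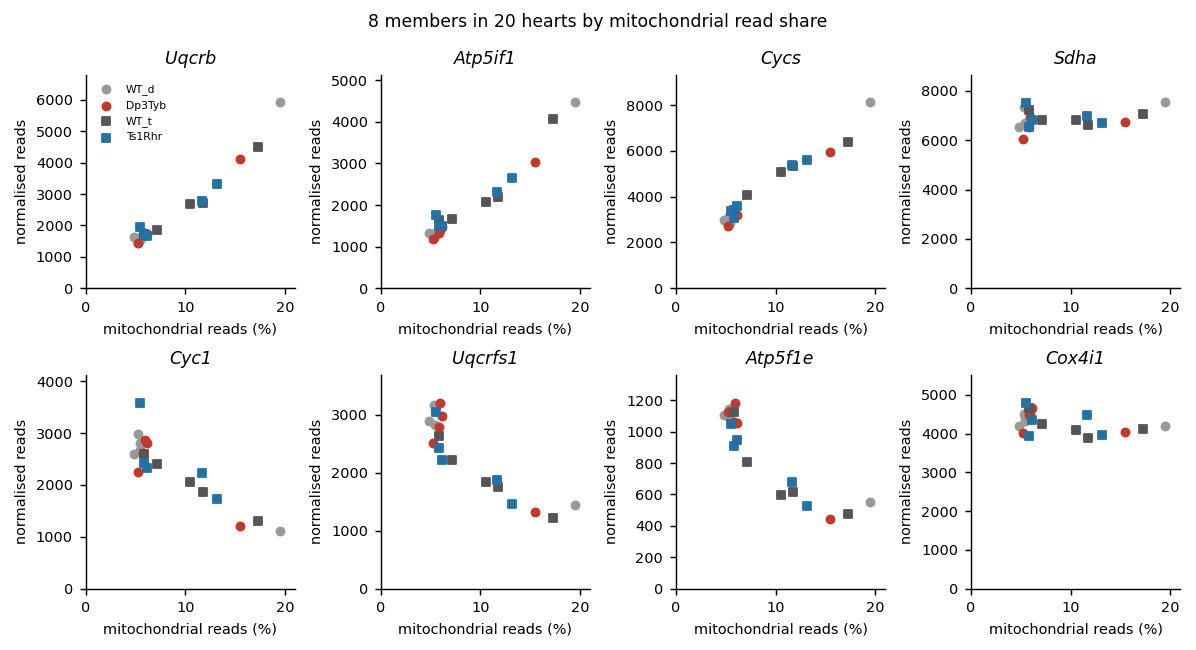
Normalised reads of 8 members (vertical axes, from 0) against the percentage of reads from the mitochondrial genome (horizontal axis) in the 20 hearts, coloured by group. Uqcrb, Atp5if1 and Cycs are higher and Cyc1, Uqcrfs1 and Atp5f1e lower in the 7 hearts over 10%, while Sdha and Cox4i1 lie at about 1 level, and hearts of both genotypes fall along the same course.

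With the group held in a limma fit of all 20 hearts, the slope of the log2 value on the mitochondrial share was called for 32 of 42 members. Of these, 12 were higher with the share, where 29.7% of all 15348 genes were, and 20 were lower, where 31.7% were. The shift was therefore spread over the transcriptome, and the call rate of the members, 76.2%, stood beside 61.4% for all genes. Per 10 percentage points of mitochondrial reads, Uqcrb changed by 1.30 ± 0.05 on the log2 scale (2.47-fold; limma adjusted p = 3.55e-16), Atp5if1 by 1.19 ± 0.05 and Cycs by 0.96 ± 0.05. Atp5f1e changed by -0.96 ± 0.08 (limma adjusted p = 2.01e-09), Cyc1 by -0.93 ± 0.08, Uqcrfs1 by -0.90 ± 0.07 and Atp5f1d by -0.82 ± 0.08. The 10 members not called included Sdha (0.03 ± 0.04), Uqcrc2, a core subunit of complex III (0.05 ± 0.04), Cox4i1 (-0.08 ± 0.04) and Atp5f1c, the gamma subunit of ATP synthase (-0.04 ± 0.04).

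By complex, 3 of 4 genes of complex II were lower with the share and none higher. In complex III 5 of 9 were lower and 2 (Uqcrb and Uqcrh) higher. In complex IV 3 of 12 were lower (Cox5a, Cox6a1 and Cox8a) and 5 higher (Cox5b, Cox6a2, Cox6b1, Cox6c and Cox7b). In complex V 9 of 16 were lower and 4 higher (Atp5if1, Atp5pb, Atp5pd and Atp5pf). The 3 genes of the c subunit moved together, at -0.45 ± 0.07 for Atp5mc1, -0.56 ± 0.08 for Atp5mc2 and -0.73 ± 0.06 for Atp5mc3. The muscle isoform Cox6a2 was at 0.53 ± 0.08 while its partner Cox6a1 was at -0.20 ± 0.06, and neither Cox7a1 nor Cox7a2 was called.

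The 2 cohorts share no hearts, so each was fitted alone. Their hearts over 10% are mostly neighbours by library name, and what goes with that order was not tested. In the Dp3Tyb cohort of 10 hearts 32 members were called (57.8% of all genes), and in the Ts1Rhr cohort 27 (38.0% of all genes). The sign of the slope was the same in both cohorts for 38 of 42 members (90.5%), against 83.1% of all 14605 genes tested in both, and 26 members were called with the same sign in both, against 34.8% of all genes. The 4 that differed in sign (Sdha, Uqcr11, Cox7a2 and Atp5me) had slopes of -0.15 to 0.19. Uqcrb had a slope of 1.36 with Dp3Tyb and its littermates and 1.21 with Ts1Rhr and its littermates, Cyc1 of -0.98 and -0.83, and Atp5f1e of -0.92 and -1.03. In the Dp3Tyb cohort the slope rests on 2 hearts over 10%, 1 of each genotype. Among the 13 hearts up to 10%, whose shares differ little, limma called 0 of 42 members and 5 of 14994 genes (0.0333%). In the fit of the 7 hearts over 10%, WT_d and Dp3Tyb had 1 heart each, which adds nothing to a slope taken within groups. That fit therefore rests on 3 WT_t and 2 Ts1Rhr hearts and cannot speak for the Dp3Tyb cohort. Among the 7 hearts over 10%, 11 of 42 members were called, against 8.82% of all genes, all with the sign they had in the 20.

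**Figure D5:**
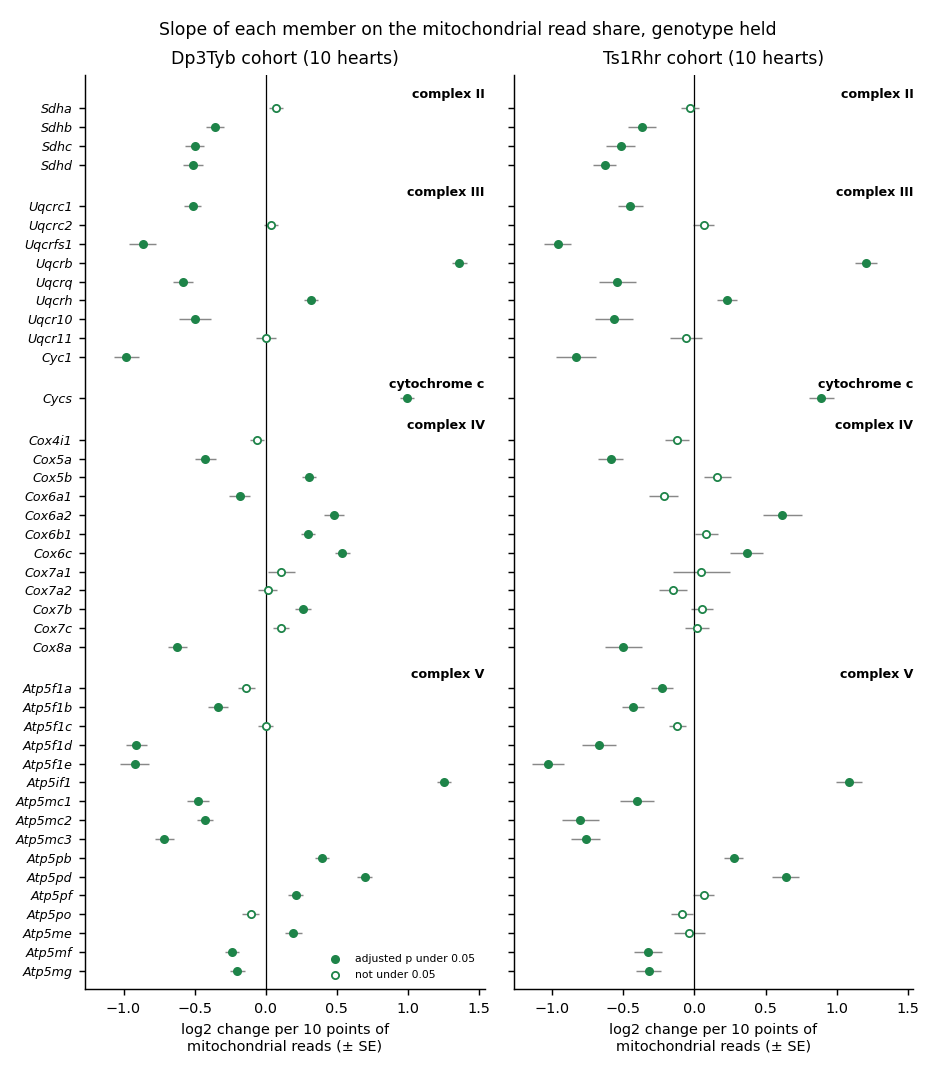
Slope of each member on the mitochondrial read share, as log2 change per 10 percentage points with its standard error (horizontal axis), by complex (vertical axis), with the Dp3Tyb cohort on the left and the Ts1Rhr cohort on the right, 10 hearts each; filled points have an adjusted limma p under 0.05. Uqcrb, Cycs and Atp5if1 lie far to the right and Cyc1, Uqcrfs1 and Atp5f1e far to the left in both cohorts.

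Other measures moved with the share. Many libraries with a high share had fewer reads, and log2 total reads in place of the share called 31 of 42 members, against 52.0% of all genes. With both terms in 1 limma fit, added after seeing the data, the slope on the share was called for 25 of 42 members (7 higher, 18 lower), against 37.1% of all genes, and was 1.17 ± 0.09 for Uqcrb and -0.94 ± 0.17 for Cyc1. In that fit the slope on total reads was called by limma for 0 of 42 members and 0 of 15348 genes, with 3 members (Cox6c, Cox7a2 and Atp5if1) and 4.52% of all genes at an unadjusted p under 0.05. The mean log2 level of 8 cardiomyocyte markers was 15.1 to 15.4 in the 7 hearts and 14.7 to 15.3 in the 13. Endothelial markers were at 11.2 to 11.5 against 11.0 to 11.3, and macrophage markers at 6.32 to 7.11 against 6.86 to 7.46. As a description over the 42 members, which share these libraries, the Spearman correlation of the slope with the share of G and C in the transcript was -0.37 (-0.46 over 15217 genes), and with transcript length -0.04 (0.06). The part of the markers, base composition and length in the slopes was not tested.

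The mean mitochondrial share was 8.10% in WT_d and 7.71% in Dp3Tyb, but 10.5% in WT_t and 8.45% in Ts1Rhr. With the share as a covariate, the log2 fold changes of the members in Ts1Rhr narrowed from -0.22 to 0.27 down to -0.08 to 0.11. Uqcrb went from -0.20 to 0.05, Cycs from -0.22 to -0.04 and Cyc1 from 0.27 to 0.09. In Dp3Tyb the range stayed at -0.12 to 0.24, with 35 of 42 members below 0. None of the 42 was called by limma in either strain. In Dp3Tyb, Cox7a1 (0.24 ± 0.09) and Atp5pf (-0.11 ± 0.05) were under an unadjusted limma p of 0.05. Atp5pf was also under it in the difference between strains (-0.16 ± 0.08). The shares of all genes called or under that threshold in these fits are not given here, so the members cannot be set against them.

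Other genes of the pathway were counted from fixed lists. Of the 38 assembly factors tested in each strain, such as the cytochrome c oxidase factors Sco1 and Surf1, limma called none, and 1 (Ttc19, a complex III factor, at -0.23 ± 0.09 in Dp3Tyb) had an unadjusted p under 0.05. Their median log2 fold change was -0.03 in Dp3Tyb and 0.05 in Ts1Rhr. The 36 complex I subunits had medians of -0.05 (27 lower) in Dp3Tyb and 0.02 (13 lower) in Ts1Rhr, none called. Of the 13 regulators, which include Ppargc1a, Nrf1, Gabpa and Esrra, none was called and the medians were -0.04 and -0.08. Of the 6 mitochondrially encoded subunits of complexes III to V, none was called, with medians of 0.04 in Dp3Tyb and -0.37 in Ts1Rhr, where all 6 were below 0. Of the 13 other subunits and isoforms listed, 10 passed the filter and none was called, with medians of -0.01 and 0.01.

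With the mitochondrial share, the slope was called for 24 of 39 assembly factors (11 higher, 13 lower), 28 of 36 complex I subunits (14 higher, 14 lower) and 12 of 13 regulators (8 higher, 4 lower), beside 61.4% of all genes. The 6 mitochondrially encoded subunits, whose own reads are part of the share, rose by 1.10 to 2.64 on the log2 scale per 10 percentage points. No nuclear member rose by more than 1.30.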

How the data were processed

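RNA-seq of 20 E13.5 mouse hearts (5 in each of 4 groups) was analysed from 1 deposited table. Per the labels, libraries were made with the KAPA mRNA HyperPrep kit and sequenced on an Illumina HiSeq instrument. The submitters' processing notes name Trimmomatic 0.36, STAR 2.5.2a, RSEM 1.2.31, DESeq2 and DESeq, and the build GRCm38. The deposited values are a signal per gene: reads per gene divided by 1 factor per library by the authors, with replicates kept separate. Whole reads were recovered for 100% of values (tolerance 1e-06 of a read) and the recomputed factors matched. Libraries held 6.60 to 19.6 M reads, so counting error is small for members, and depth limits mainly low genes. Names and lengths came from GENCODE vM39 for 44565 of 48795 identifiers (91.3%), and promoters and positions from RefSeq (GRCm38.p6).

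The main test was limma 3.58.1 (R 4.3.3; trend and robust) on log2(value + 1), a scale that understates changes of low genes, with Benjamini-Hochberg adjustment over all genes that reached a value of 10 in 5 or more libraries. Each strain was fitted with its own littermates, and the difference between strains in 1 fit of all 20. edgeR 4.0.16 and DESeq2 1.42.0 on the recovered reads, other pseudocounts, no filter, TMM scaling, covariates, a length correction and left-out libraries were alternatives. In simulated data with known changes in the Dp3Tyb design (14593 genes), limma recovered 59% of 1.5-fold and 86% of 2-fold changes, and in the Ts1Rhr design (14718 genes) 67% and 94%. For the difference between strains (15215 genes) it recovered 40% and 82%. Ratios were tested by exact two-sided permutation. Slopes on the mitochondrial share were added after the data were seen.

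Named with values were members with an unadjusted limma p under 0.05, the highest and lowest fold change and the highest and lowest value per kilobase of each complex, the isoform pairs, the c subunit genes, Atp5if1, Atp5f1b, Cycs and the chromosome 16 members; others named with the mitochondrial share were chosen after their values were seen. Copies were transcripts at least 95% identical over at least 80% of the shorter one. The members and lists were chosen with earlier results of these data known. The labels name separate embryos by genotype, with a phenotype note on heart defects. They name no litters, so hearts that share a litter could not be accounted for. The p-values measure the spread between these samples. No protein sequences were used here.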

Additional observations from a re-analysis of the deposited data

Results flagged for a closer look

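In groups of 5 hearts a sample was marked when its gap to the nearest other heart exceeded Dixon's 95% critical value, as a share of the group's range. Of 21 measures in 4 groups, 84 in all, chance marks about 1 in 20, and measures of 1 heart are not independent. Of the 19 marks, 18 fell on WT_d replicate 5 and Dp3Tyb replicate 5, the hearts with the highest mitochondrial read share of their groups, at 19.5% and 15.5%, both marked themselves. Uqcrb stood at 5922 normalised reads in WT_d replicate 5 and 4122 in Dp3Tyb replicate 5. Cycs stood at 8124 and 5973, and the centred cytochrome c level at 1.03 and 0.58. Atp5if1 stood at 4469 and 3027, and also at 4063 in WT_t replicate 4, where the share was 17.2%. The Atp5if1 to Atp5f1b log2 ratio stood at -2.41 and -2.78, and that of Cox6a2 to Cox6a1 at -0.18 and -0.35. Atp5f1e was low at 549 and 442 normalised reads, and in WT_d replicate 5 so were Cyc1 at 1116 and Uqcrfs1 at 1433. The cause was not tested.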

How the results depend on the processing

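No paired analysis was run, because the labels do not pair hearts between groups. Library names alternate between wild type and strain, but whether neighbours share a litter is not stated. Under all alternatives run, limma, edgeR and DESeq2 called 0 of 42 members in either strain and in the difference between strains. The shares of all genes called under these alternatives are not given here. Of 1032 alternative values with a sign, 88 turned sign: 25 of 336 for named genes, 13 of 96 for ratios, 29 of 432 for medians over members or a complex and 21 of 168 for complex levels. No value that turned had passed a test. Without libraries over 10% of mitochondrial reads, Uqcr10 and Cox6c in Dp3Tyb became 0.0086 and 0.0087, Sdha in Ts1Rhr -0.016 and the Atp5mc1 to Atp5mc2 ratio in Ts1Rhr 0.12. With the cardiomyocyte level as covariate, Uqcrq and Cox6c in Dp3Tyb became -0.044 and 0.024. With the mitochondrial share as covariate, Sdha, Uqcrb and Atp5if1 in Ts1Rhr became -0.0063, 0.047 and 0.012, and with a length correction Sdha became -0.022. The cause was not tested. Leaving out 1 heart at a time, Dp3Tyb values ran from -0.11 to 0.077 for Sdhb, -0.17 to 0.10 for Uqcr10, -0.10 to 0.19 for Uqcrq, -0.17 to 0.073 for Cox6c and -0.026 to 0.097 for Atp5me. Ts1Rhr values ran from -0.030 to 0.019 for Sdha, -0.35 to 0.0055 for Uqcrb and -0.33 to 0.010 for Atp5if1. The ratio differences ran from -0.12 to 0.20 for Cox6a2 to Cox6a1 and -0.28 to 0.49 for Atp5if1 to Atp5f1b in Dp3Tyb, and in Ts1Rhr from -0.46 to 0.0024 for Atp5if1 to Atp5f1b and -0.10 to 0.084 for Atp5mc1 to Atp5mc2. The Cox7a1 to Cox7a2 difference in Dp3Tyb stayed between 0.29 and 0.36. The count of members changing with the mitochondrial share, 32, was 29 to 34 on leaving out a heart, 0 in the 13 libraries up to 10% and 11 in the 7 over it, fits with fewer libraries and a narrower range of shares. It was 25 with log2 total reads as a further term, and the slope on total reads itself, with the share held, was called for 0. These fits were chosen after seeing the data, and the slope in the 7 libraries over 10% rests on 3 WT_t and 2 Ts1Rhr libraries.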
